A study of Homo sapiens with 4 samples.

Results

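A group of 47 genes stood out in Jurkat cells after LEF1 knockdown as bright on the array, higher in both siLEF1 samples and steady between the siNT samples. Jurkat is a human T-cell leukemia line, and LEF1 is the transcription factor through which Wnt signaling and beta-catenin act on many genes in T cells. The siLEF1 group (2 arrays) had been transfected with 100 nM of a pool of LEF1 siRNAs, and the siNT group (2 arrays) with 100 nM of a non-targeting pool. Both were cultured for 24 h in the same medium, and the labels call the replicates biological. RNA of each culture was read on an HG-U133 Plus 2.0 array, whose probe sets are groups of short probes near the 3' end of a transcript. Each value is an RMA signal on the log2 scale, so a difference of 1 is a change of 2-fold.

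The 47 genes were chosen by the measured values themselves. A probe set with 1 gene symbol qualified if the lower siLEF1 value exceeded the higher siNT value by at least 0.6, if the siNT values were less than 0.3 apart, and if both siLEF1 values were at least 7. This difference between the nearest values of the groups is called the gap here. Of 54613 probe sets, 41091 had 1 symbol, covering 19775 genes, and 12977 of these probe sets reached a signal of 7 on both siLEF1 arrays. A gap of 0.6 was present in 187 of them, from 161 genes, and the limit on the siNT spread left 52 probe sets from 47 genes. For INSIG1, TMEM97, GBP1 and GLRB more than 1 probe set qualified, and the brightest of these was taken. The mirrored rule, with both siNT values at least 7, less than 0.3 apart and above both siLEF1 values by the same gap, gave 170 genes. Because the rule used the siLEF1 and siNT values, the difference between the groups is given below as a description of the members and not as a test. The limit on the siNT spread also favours small standard errors (SE) in the members.

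**Figure D1:**
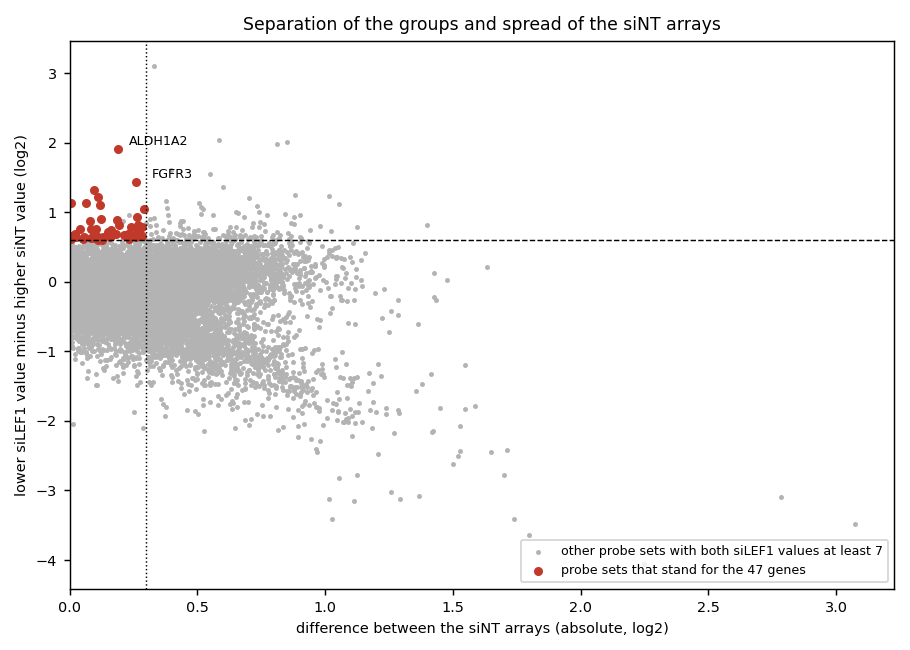
Each point is a probe set with 1 gene symbol and both siLEF1 values at least 7. The horizontal axis is the absolute difference between the siNT arrays and the vertical axis the gap, the lower siLEF1 value minus the higher siNT value (both log2). The dashed line marks a gap of 0.6 and the dotted line a siNT difference of 0.3. The red points are the probe sets that stand for the 47 genes, with gaps between 0.60 and 1.91, and the grey points in the same corner are further qualifying probe sets of those genes.

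LEF1 itself, read by its brightest probe set, had 11.24 and 11.56 in siLEF1 cells, against 12.30 and 11.92 in siNT cells. The groups did not overlap, and the difference was -0.71 (SE 0.20, adjusted p = 0.191 by limma). A dimmer probe set also separated the groups, by -0.93 (adjusted p = 0.141 by limma). On the dimmest, with values of 4.48 to 4.89, the groups overlapped (-0.19). The targeted mRNA was thus lower on both brighter probe sets, by margins that did not pass the test. All 10 measured Jurkat T-cell markers lay above the array median on all 4 arrays. Of the markers of other lineages, 5 of 9 B-cell, 3 of 10 myeloid, 4 of 6 erythroid and 5 of 12 epithelial and stromal genes did so too. The array medians were low, at 4.84 to 4.85, and the share of all genes above them was not worked out. Nothing about lineage is read from these counts. The summed linear signal of the B-cell list was 591 and 615 in siLEF1 cells, against 533 and 431 in siNT cells, and that of the myeloid list was 236 and 253 in siLEF1 cells, against 246 and 239 in siNT cells. For the erythroid list it was 519 and 442 in siLEF1 cells, against 563 and 538 in siNT cells, and for the epithelial and stromal list 772 and 745 in siLEF1 cells, against 760 and 797 in siNT cells. The 5' minus 3' signal of ACTB, a measure of RNA integrity, was -1.08 and -1.55 in siLEF1 cells, against -1.80 and -1.95 in siNT cells. That measure moved with the groups, and its part in the results below was not tested. All samples were cultures of the Jurkat line. In such bulk samples, a change in a part of the cells and a change in all of them cannot be told apart.

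Cells hold their membrane lipids steady through the SREBP transcription factors. When sterols in the endoplasmic reticulum run low, SCAP carries SREBP to the Golgi, where proteases release the part that enters the nucleus and activates genes of cholesterol and fatty acid synthesis. When sterols are plentiful, INSIG proteins hold SCAP and SREBP back. SREBF2 encodes the form that acts mainly on cholesterol genes and SREBF1 the form that acts mainly on fatty acid genes. Dividing leukemia cells need new membrane, and 9 of the members act in cholesterol or fatty acid metabolism. The promoters of SREBP target genes are known for CCAAT boxes, which bind the factor NF-Y, beside a sterol element or an E-box.

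Promoter windows of 6 of these members are printed to show the CCAAT boxes that each of them holds. They are RefSeq windows on GRCh38.p14, which run 5' to 3' on the strand of the gene, with 250 bases before the start site and 50 after it. Capitals mark the CCAAT box, read on either strand, so that it may appear as its reverse complement. They also mark the E-box (CACGTG) and the core of a sterol element (CACCCCAC).
INSIG1, chr7:155297628-155297927, plus strand: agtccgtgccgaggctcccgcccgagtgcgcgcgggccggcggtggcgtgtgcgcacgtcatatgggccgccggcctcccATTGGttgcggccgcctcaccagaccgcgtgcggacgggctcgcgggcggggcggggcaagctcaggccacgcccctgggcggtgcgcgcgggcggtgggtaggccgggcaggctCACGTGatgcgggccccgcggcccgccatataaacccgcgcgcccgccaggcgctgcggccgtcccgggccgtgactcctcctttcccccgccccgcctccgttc
LSS, chr21:46228725-46229024, minus strand: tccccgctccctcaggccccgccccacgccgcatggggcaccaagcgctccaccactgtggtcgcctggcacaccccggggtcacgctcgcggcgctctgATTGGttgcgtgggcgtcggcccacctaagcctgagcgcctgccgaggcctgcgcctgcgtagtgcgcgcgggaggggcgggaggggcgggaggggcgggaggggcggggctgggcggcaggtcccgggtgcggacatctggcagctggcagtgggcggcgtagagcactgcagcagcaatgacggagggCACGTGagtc
TMEM97, chr17:28318950-28319249, plus strand: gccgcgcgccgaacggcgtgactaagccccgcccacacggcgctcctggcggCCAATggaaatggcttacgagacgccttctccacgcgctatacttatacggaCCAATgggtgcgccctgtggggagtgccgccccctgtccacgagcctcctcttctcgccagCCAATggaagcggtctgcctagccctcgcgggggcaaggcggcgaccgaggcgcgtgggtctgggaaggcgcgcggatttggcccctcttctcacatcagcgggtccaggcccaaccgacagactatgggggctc
MVD, chr16:88663042-88663341, minus strand: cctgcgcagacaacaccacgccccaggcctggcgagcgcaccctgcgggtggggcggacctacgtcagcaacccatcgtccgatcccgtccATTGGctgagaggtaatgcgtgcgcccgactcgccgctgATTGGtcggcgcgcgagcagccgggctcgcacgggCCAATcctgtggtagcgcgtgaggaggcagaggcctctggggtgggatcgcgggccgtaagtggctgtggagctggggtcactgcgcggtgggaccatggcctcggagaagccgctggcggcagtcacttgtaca
FDPS, chr1:155308616-155308915, plus strand: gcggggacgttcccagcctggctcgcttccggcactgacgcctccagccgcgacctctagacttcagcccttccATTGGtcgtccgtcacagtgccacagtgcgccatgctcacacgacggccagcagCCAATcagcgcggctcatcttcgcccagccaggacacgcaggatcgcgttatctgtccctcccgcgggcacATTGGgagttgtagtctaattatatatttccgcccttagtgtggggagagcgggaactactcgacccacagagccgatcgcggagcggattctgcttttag
SREBF2, chr22:41832855-41833154, plus strand: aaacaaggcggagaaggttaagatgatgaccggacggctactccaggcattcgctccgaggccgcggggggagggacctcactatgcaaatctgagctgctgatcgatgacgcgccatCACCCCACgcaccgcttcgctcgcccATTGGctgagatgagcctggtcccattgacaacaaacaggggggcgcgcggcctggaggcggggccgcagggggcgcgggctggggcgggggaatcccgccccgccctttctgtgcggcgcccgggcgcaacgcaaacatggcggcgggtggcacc

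Besides the marked motifs, both strands of each window were searched for the core of the LEF1/TCF site (CTTTGA), the TATA box (TATAAA) and the GC box (GGGCGG). A match is only a string of letters in a window. In the TMEM97 window CCAAT began 198, 146 and 85 bases before the start site, and in the FDPS window it began 176, 122 and 51 bases before it. In the MVD window it began 159, 120 and 85 bases before the start. The INSIG1 window had a CCAAT 170 bases before the start and an E-box 55 bases before it. The LSS window had a CCAAT 150 bases before the start, but its E-box began 41 bases after it. The TMEM97, FDPS and MVD windows held neither CACGTG nor CACCCCAC. SREBF2 was the member with CACCCCAC, 132 bases before its start site, with a CCAAT at 106 bases before it.

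Windows were found for 42 of the 47 members. CCAAT lay in a window of 28 of these 42 genes (66.7%), compared to 39.7% of all 27305 genes with a window, 44.1% of the bright genes and 46.8% of the genes that met the mirrored rule. Genes with several windows have more chances of a match, and per window the shares were 49.2% for the members and 35.5% for the bright genes. All 8 matched members of the lipid group held CCAAT, as did 20 of the 34 other matched members (58.8%). Per window the share of these others was 41.5%, compared to 38.9% for the genes of the mirrored rule. Of these 8 lipid members, 2 held an E-box and 1 held CACCCCAC. The GC box lay in windows of 36 members (85.7%), compared to 79.5% of bright genes. Per window the shares were nearly equal, 68.3% for the members and 68.5% for the bright genes. The LEF1/TCF core CTTTGA was found for 4 members (9.52%), CD1D, PPP2R2C, CNPY3 and ADM5, compared to 15.5% of all genes and 11.5% of bright genes. The E-box was found for 6 members (14.3%), close to the 14.1% of bright genes. TATAAA was found for 3 members (7.14%), compared to 7.13% of bright genes, and CACCCCAC for 1 (2.38%), compared to 3.47%.

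The members' log2 fold changes, siLEF1 minus siNT, had a median of 0.84 and a range of 0.65 to 2.06, which is 1.57 to 4.18-fold. The median over all probe sets was 0.04, and over the bright probe sets with 1 symbol 0.05. A limma fit across all probe sets called 13 of them higher (more than 2-fold, with an adjusted p below 0.05), which is 0.0238% of those tested, and 4 of the 47 members were among them. These were ALDH1A2, FGFR3, CHRNA3 and CHI3L2. The rule used the same contrast, so nothing is read from this count. It depended on single arrays. With 1 array left out, the lone array of its group is assumed to vary like the pair of the other group. In such limma fits 12 members were called without siNT replicate 1, and 0 without siLEF1 replicate 1, siLEF1 replicate 2 or siNT replicate 2, where 3688, 4623 and 6232 of all probe sets had an unadjusted p under 0.05. A total of 11 members were higher by more than 2-fold, as were 263 of all 54613 probe sets. Of the 7552 bright probe sets with siNT values less than 0.3 apart, 12 were. The count of members therefore largely restates the rule.

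**Figure D2:**
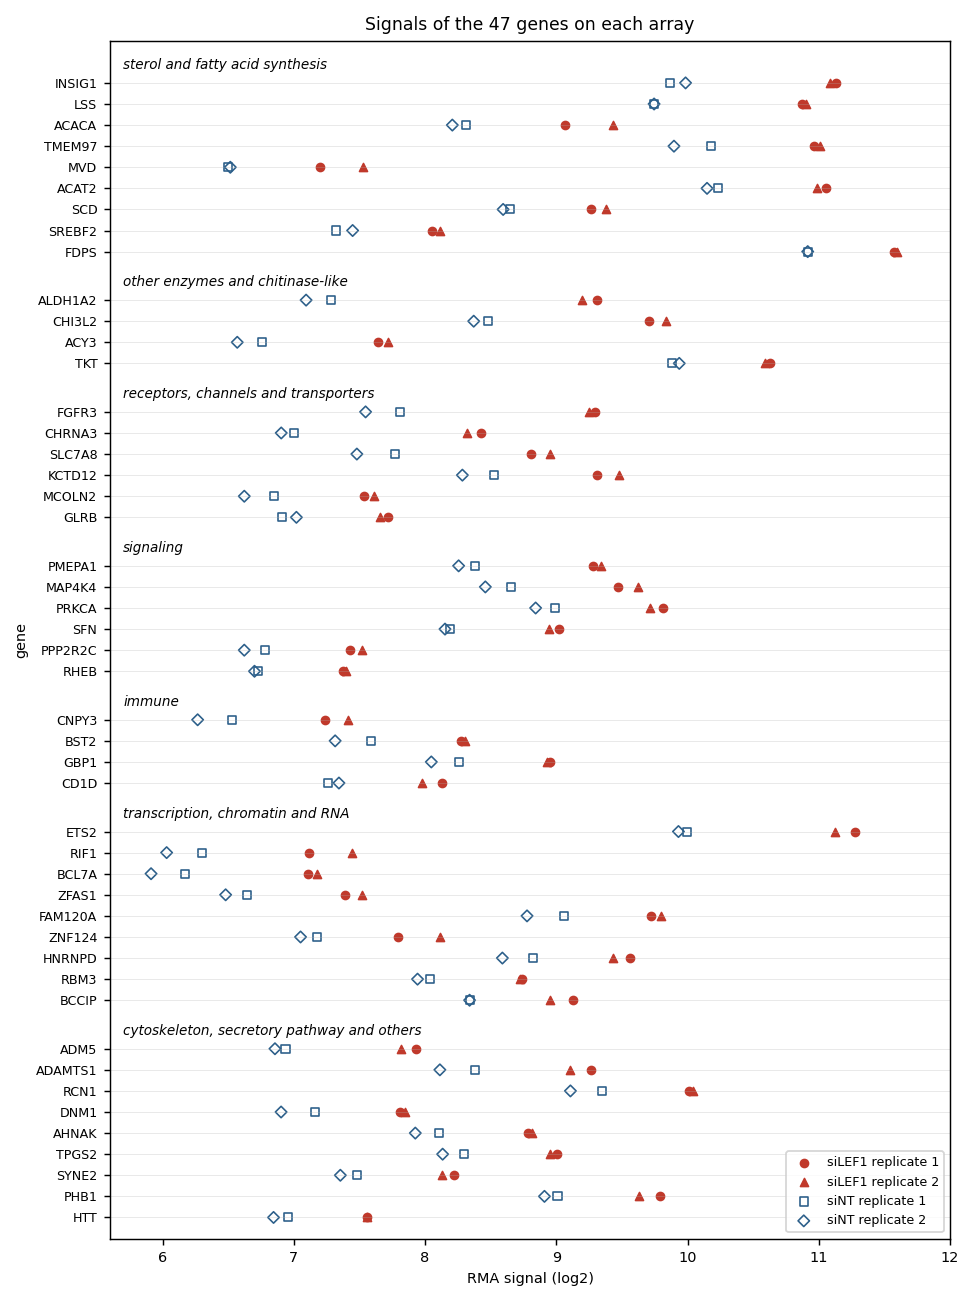
The RMA signal (log2) of each of the 47 genes on the 4 arrays, by role and, within a role, by the difference between the groups. Filled red symbols are siLEF1 samples and open blue symbols siNT samples, with a circle or square for replicate 1 and a triangle or diamond for replicate 2. For every gene both siLEF1 points lie to the right of both siNT points, as the rule requires, and ALDH1A2 has the widest gap at 1.91.

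The members are described by role, and the roles were assigned after their values were seen. The lipid group had 9 members, with log2 fold changes between 0.67 and 1.18. INSIG1, which retains the SREBP precursor in the endoplasmic reticulum and is itself a target of SREBP, had 11.13 and 11.09 in siLEF1 cells, against 9.87 and 9.98 in siNT cells. Its groups were more than 1 unit apart, and its log2 fold change was 1.18 (SE 0.15). LSS, lanosterol synthase, which closes the sterol rings, had 10.87 and 10.90 in siLEF1 cells and 9.74 on both siNT arrays, a log2 fold change of 1.14 (SE 0.14). LSS thus had the closest replicates of the leading members.

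FDPS, which makes farnesyl diphosphate, was the brightest member. It had 11.57 and 11.59 in siLEF1 cells, against 10.92 and 10.92 in siNT cells, and differed by 0.67. MVD, which makes isopentenyl diphosphate from mevalonate diphosphate, was among the dimmest, with 7.20 and 7.53 in siLEF1 cells, against 6.50 and 6.52 in siNT cells. Here the siLEF1 arrays differed by more than the siNT arrays. ACAT2, a cytosolic thiolase at the entry to the pathway, had 11.06 and 10.98 in siLEF1 cells, against 10.23 and 10.15 in siNT cells. TMEM97, the sigma-2 receptor, which has been linked to cholesterol transport, had 10.96 and 11.01 in siLEF1 cells, against 10.18 and 9.90 in siNT cells. ACAT2 differed by 0.83 and TMEM97 by 0.95. SREBF2 had 8.05 and 8.12 in siLEF1 cells, against 7.32 and 7.45 in siNT cells, and its gap of 0.60 was among the smallest. On another probe set of SREBF2, nearly as bright, the groups overlapped (-0.29).

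The fatty acid members were ACACA and SCD. ACACA, acetyl-CoA carboxylase, which makes the malonyl-CoA used for fatty acids, had 9.06 and 9.43 in siLEF1 cells, against 8.31 and 8.21 in siNT cells. SCD, which places a double bond in fatty acids, had 9.27 and 9.38 in siLEF1 cells, against 8.65 and 8.59 in siNT cells. The siLEF1 values of ACACA were the widest apart of all members.

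The members do not make up the pathway. In a list of 26 genes of cholesterol synthesis and uptake, 20 were measured, and 6 of these were members. By the brightest probe set of each gene, 12 of the 20 (60.0%) had both siLEF1 values above both siNT values and 1 had both below, with a median log2 fold change of 0.36. In a list of 12 fatty acid genes, 10 were measured, 7 (70.0%) had both siLEF1 values above and 0 below, and the median was 0.46. Over all 19775 genes 28.1% had both siLEF1 values above and 5225 genes had both below, and the median was 0.02. Over the 8472 genes whose brightest probe set reached 7 on both siLEF1 arrays, 35.2% had both above and 2851 genes both below. Their median was 0.02 too. Shares of this size were not particular to the lipid lists. The share with both above was 53.3% of housekeeping genes, 55.0% of ribosome biogenesis genes and 58.3% of glycolysis and hypoxia genes. It was 64.0% of G2 and mitosis genes and 79.3% of S phase genes. By contrast, it was 17.6% of p53 targets and 7.69% of ERK and immediate early genes. No gene of either lipid list passed an adjusted p under 0.05 in either direction, while 0.0657% of all genes passed as higher and 0.263% as lower.

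Several genes of the lipid lists separated the groups without meeting the rule. DHCR7, the last enzyme of cholesterol synthesis, had 9.96 and 9.97 in siLEF1 cells, against 8.83 and 9.28 in siNT cells, a larger difference (0.91) than that of most members. HMGCS1, which makes HMG-CoA, had 9.99 and 9.88 in siLEF1 cells, against 8.88 and 9.33 in siNT cells. SREBF1 had 8.95 and 9.30 in siLEF1 cells, against 8.42 and 8.32 in siNT cells, and missed the rule by its gap. HSD17B7, which reduces a ketone of the sterol ring, ran the other way, with 9.47 and 9.53 in siLEF1 cells, against 10.10 and 10.76 in siNT cells. None of these 4 genes had overlapping groups.

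**Figure D3:**
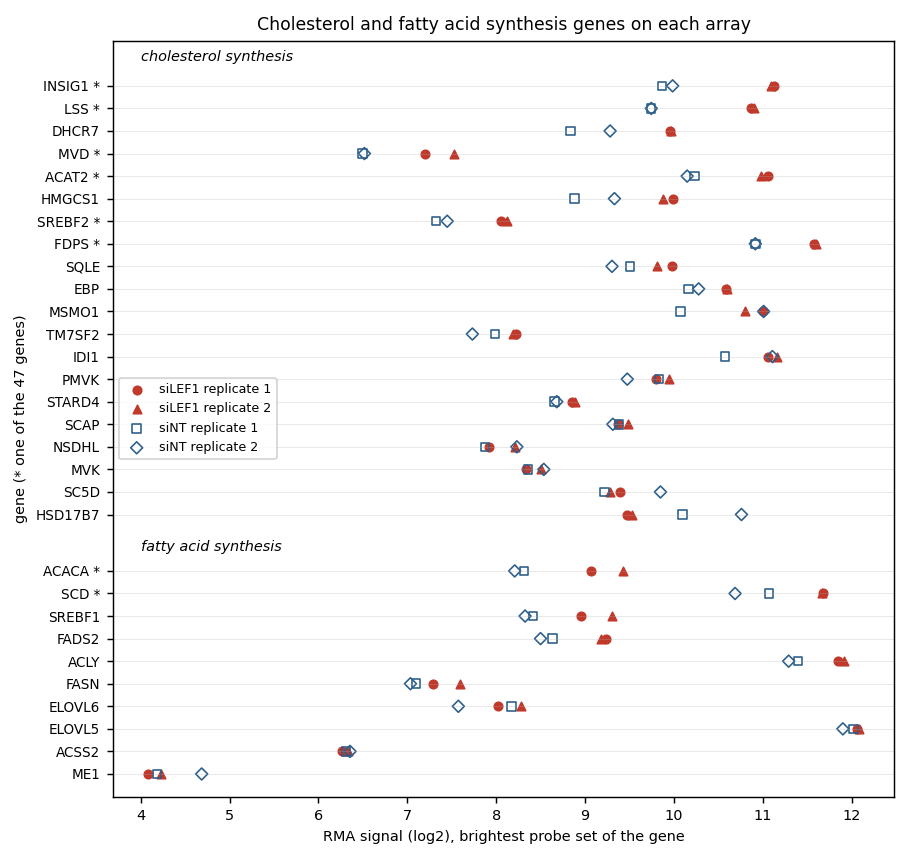
The RMA signal (log2) of the brightest probe set of each measured gene in the cholesterol list and the fatty acid list on the 4 arrays. Filled red symbols are siLEF1 samples, open blue symbols siNT samples, and an asterisk marks one of the 47 genes. In 12 of 20 cholesterol genes and 7 of 10 fatty acid genes both siLEF1 values are higher than both siNT values, and HSD17B7 has both lower.

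Among the other enzymes, ALDH1A2 had the largest difference of all members. ALDH1A2, which makes retinoic acid from retinaldehyde, had 9.31 and 9.20 in siLEF1 cells, against 7.28 and 7.09 in siNT cells. It rose by 2.06 on the log2 scale (SE 0.16), or 4.18-fold. CHI3L2, a chitinase-like protein without known chitinase activity, had 9.71 and 9.84 in siLEF1 cells, against 8.48 and 8.37 in siNT cells, and rose 2.54-fold. ACY3, an aminoacylase that removes acetyl groups from mercapturic acids, had 7.64 and 7.72 in siLEF1 cells, against 6.75 and 6.57 in siNT cells. TKT, transketolase of the pentose phosphate pathway, had 10.62 and 10.59 in siLEF1 cells, against 9.88 and 9.94 in siNT cells. ACY3 and TKT did not pass the test. The second probe set of ALDH1A2 was dim, with 4.97 and 4.43 in siLEF1 cells, against 4.15 and 4.21 in siNT cells.

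The median log2 fold change of the 6 receptors, channels and transporters was 1.12. FGFR3, a receptor tyrosine kinase for fibroblast growth factors, had 9.29 and 9.25 in siLEF1 cells, against 7.81 and 7.55 in siNT cells, and rose 3.02-fold (log2 1.59, SE 0.16). CHRNA3, a subunit of the neuronal nicotinic acetylcholine receptor, had 8.42 and 8.32 in siLEF1 cells, against 7.0 and 6.90 in siNT cells, and rose 2.68-fold (log2 1.42, SE 0.15). That the siNT replicates of both were close together in relation to these differences was required by the rule. FGFR3 was also read by a probe set near the lower end of the array's range, with 3.08 and 3.28 in siLEF1 cells, against 3.08 and 3.18 in siNT cells, and there the groups overlapped. SLC7A8, a carrier of neutral amino acids, had 8.81 and 8.95 in siLEF1 cells, against 7.77 and 7.48 in siNT cells, and its siNT values were the farthest apart of any member. KCTD12, an auxiliary subunit of GABA-B receptors, differed by 0.99, MCOLN2, a cation channel of endosomes, by 0.84, and GLRB, the beta subunit of the glycine receptor, by 0.72.

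The signaling members were 6 genes between 0.67 and 0.99 on the log2 scale. PMEPA1, a membrane protein that dampens TGF-beta signaling, had 9.28 and 9.34 in siLEF1 cells, against 8.38 and 8.26 in siNT cells. MAP4K4, a kinase upstream of JNK, had the same log2 fold change of 0.99. On the brightest probe sets of PMEPA1 and MAP4K4, which did not qualify, it was 0.40 and 0.34. PRKCA, protein kinase C alpha, differed by 0.84, SFN, the 14-3-3 sigma protein, by 0.81, and PPP2R2C, a regulatory subunit of protein phosphatase 2A, by 0.77. RHEB, the GTPase that activates mTORC1, differed by 0.67.

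The immune members were 4 genes between 0.75 and 0.93. CD1D, which presents lipids to natural killer T cells and is expressed by cortical thymocytes, had 8.13 and 7.98 in siLEF1 cells, against 7.26 and 7.34 in siNT cells. BST2, or tetherin, which holds budding viruses at the cell surface, had 8.28 and 8.31 in siLEF1 cells, against 7.59 and 7.31 in siNT cells. GBP1, a GTPase induced by interferon, differed by 0.78, and CNPY3, a chaperone of Toll-like receptors, by 0.93. Although BST2 and GBP1 are known interferon targets, neither was in the interferon list used here, and in that list 8 of 25 measured genes (32.0%) had both siLEF1 values above and 7 had both below, with a median of 0.05. Over all genes the share with both above was 28.1%, and over bright genes 35.2%. Both values were below in 5225 of all 19775 genes and in 2851 of the 8472 bright genes.

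Of the 9 members that act in transcription, chromatin or RNA, ETS2 differed most. ETS2, a transcription factor of the ETS family, had 11.27 and 11.13 in siLEF1 cells, against 9.99 and 9.93 in siNT cells, a log2 fold change of 1.24 (SE 0.15). BCL7A, a subunit of SWI/SNF chromatin remodelers, had 7.11 and 7.18 in siLEF1 cells, against 6.17 and 5.91 in siNT cells. RIF1, which acts in replication timing and DNA repair, had 7.12 and 7.44 in siLEF1 cells, against 6.30 and 6.03 in siNT cells. BCL7A and RIF1 lay just above the level of 7 that the rule asks for, and the brightest probe set of RIF1 did not separate the groups. The others were ZFAS1, a noncoding RNA that hosts small nucleolar RNAs, FAM120A, HNRNPD and RBM3, which bind RNA, ZNF124, a zinc finger protein, and BCCIP, a partner of BRCA2. They differed by 0.70 to 0.89.

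The remaining 9 members have no common role. ADM5, a relative of adrenomedullin, had 7.93 and 7.82 in siLEF1 cells, against 6.94 and 6.86 in siNT cells, the largest difference among them at 0.98. ADAMTS1, a secreted metalloprotease, differed by 0.94, and RCN1, a calcium-binding protein of the endoplasmic reticulum, by 0.80. DNM1, the GTPase dynamin, differed by 0.79, AHNAK, a giant scaffold protein, by 0.79, and SYNE2, which links the nucleus to the cytoskeleton, by 0.76. TPGS2, a subunit of the tubulin polyglutamylase complex, differed by 0.76 and PHB1, prohibitin of the mitochondrial inner membrane, by 0.75. HTT, huntingtin, had the smallest difference of all members, 0.65.

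Across the 25 gene lists used here, 9 members lay in 3 lists and 38 in none. Apart from the lipid lists, the thymocyte list held CD1D. The 4 members called by limma were in none of the lists.

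Many members were read by further probe sets from the same arrays, 111 in all. Of these, 5 met the rule themselves (2 of GBP1 and 1 each of INSIG1, TMEM97 and GLRB), so their direction was fixed by it. Of the 106 others, 64 (60.4%) had both siLEF1 values above both siNT values, compared to 27.4% of all probe sets. Both siLEF1 values were below for 6 of the 106 (5.66%), compared to 21.2% of all probe sets. At a signal of at least 7 on both siLEF1 arrays there were 47 of these others, and 34 (72.3%) had both above, compared to 38.0% of all probe sets at that level. Their median log2 fold change was 0.45, smaller than the members' own 0.84. For 16 of the 25 members with such a probe set, every one had both siLEF1 values above. For TMEM97 the log2 fold changes of its 4 probe sets ran between 0.95 and 1.34, for the 3 of INSIG1 between 0.99 and 1.22, and for each gene 2 of them met the rule. The brightest probe set of SCD had 11.68 and 11.67 in siLEF1 cells, against 11.07 and 10.69 in siNT cells, and did not qualify because of its siNT spread. The second ACY3 probe set had 7.24 and 7.48 in siLEF1 cells, against 5.99 and 5.10 in siNT cells, a difference of 1.81 with siNT values far apart.

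Other members rested on 1 of several probe sets. For 30 members the qualifying probe set was the brightest of the gene, and for 17 a brighter probe set did not qualify. Among these 17, the brightest probe set had a smaller log2 fold change for MAP4K4 (0.34), PMEPA1 (0.40), BCL7A (0.38) and HNRNPD (0.15). It had a larger one for SLC7A8 (1.31) and SCD (0.80). Brighter probe sets of ZFAS1 and CNPY3 ran the other way, as did dim ones of PPP2R2C and ZNF124. For ZFAS1 the qualifying probe set had 7.39 and 7.52 in siLEF1 cells, against 6.64 and 6.48 in siNT cells, but the brightest had 12.47 and 12.41 in siLEF1 cells, against 13.02 and 13.41 in siNT cells. All 3 brighter probe sets of ZFAS1 were lower in siLEF1 cells, by 0.78 to 0.83. RHEB had 11.83 and 11.84 in siLEF1 cells on its brightest probe set, against 11.73 and 11.84 in siNT cells, a difference of 0.05. RBM3 had 11.26 and 11.28 in siLEF1 cells on its brighter probe set, against 11.28 and 11.01 in siNT cells. These probe sets of RHEB and RBM3 did not separate the groups. CNPY3 had a brighter probe set with 6.74 and 6.50 in siLEF1 cells, against 6.76 and 7.68 in siNT cells, lower by a log2 fold change of -0.60, and its brighter probe sets at the level of 7 overlapped between the groups (0.22 and 0.31). The brightest probe set of RIF1 had 8.39 and 8.45 in siLEF1 cells, against 8.63 and 8.39 in siNT cells, a log2 fold change of -0.09, while its other brighter probe sets had both siLEF1 values above (0.51 and 0.78). The groups also overlapped for the brightest probe set of BCCIP (-0.03) and for dimmer probe sets of ACACA (0.03), PRKCA (-0.09) and SREBF2 (-0.29). That of SREBF2 was nearly as bright as the qualifying one, with mean signals of 7.71 and 7.73. A total of 8 members, among them CHI3L2, MVD, FDPS and CD1D, were read by a single probe set.

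**Figure D4:**
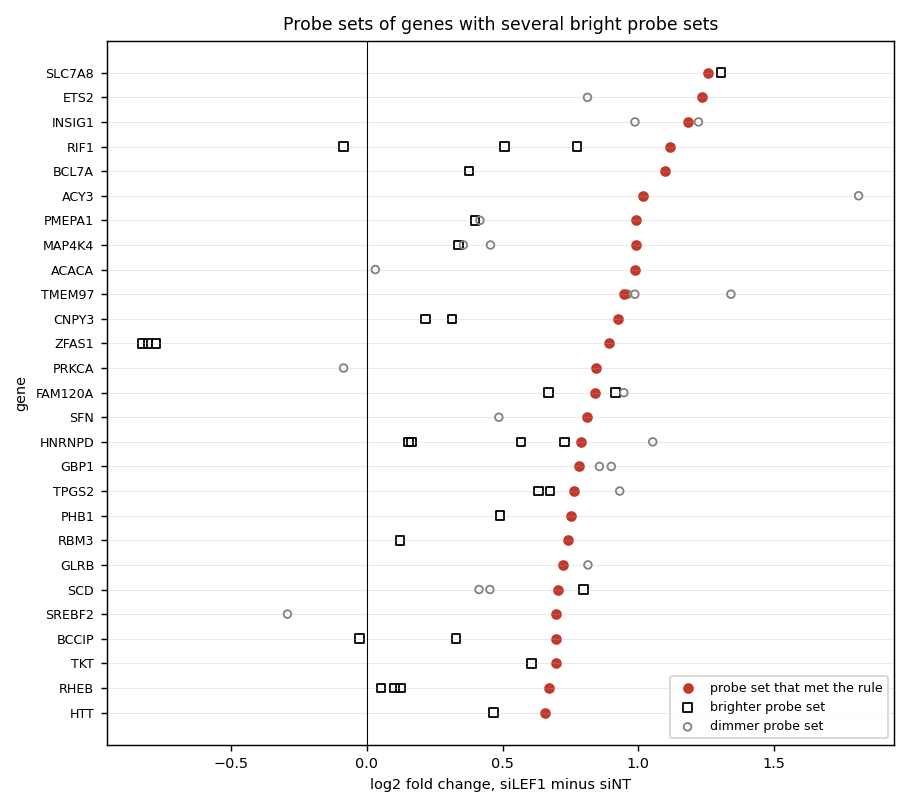
Log2 fold changes, siLEF1 minus siNT, of the 27 members that have several probe sets with both siLEF1 values at least 7. The red point is the probe set that met the rule, squares are brighter and open circles dimmer probe sets of the same gene at that level. The 3 squares of ZFAS1 lie left of 0 and those of RHEB close to 0. All points of TMEM97, INSIG1 and GBP1 lie at 0.78 or more. Their further probe sets are dimmer, and several met the rule themselves.

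The siNT values were close together by the rule, but not evenly placed. siNT replicate 2 was below siNT replicate 1 in 40 of the 47 members (85.1%), compared to 58.7% of the 7552 bright probe sets whose siNT values were less than 0.3 apart. In the 170 genes of the mirrored rule it was below in 45 (26.5%). In both gene groups, therefore, siNT replicate 2 lay mostly on the side away from the siLEF1 arrays.

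The rule set no limit on the difference between the siLEF1 arrays. Its median was 0.0760 over the members, compared to 0.0846 over the bright probe sets with siNT values less than 0.3 apart, and 28 members (59.6%) had siLEF1 values less than 0.1 apart, compared to 57.0%. The gap is taken from the lower siLEF1 value, which itself favours close siLEF1 values. For ACACA, MVD, RIF1 and ZNF124 the siLEF1 values were 0.32 to 0.36 apart, wider than the rule allowed for siNT.

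The thresholds cut through a continuous range. Just inside the gap of 0.6 were HTT (0.60), SREBF2 (0.60) and BCCIP (0.61), and just outside it were probe sets of ACLY (0.59), ACOT7 (0.59) and SF3B3 (0.58). ACLY makes the acetyl-CoA for lipid synthesis. Just inside the siNT limit were SLC7A8 (0.29), TMEM97 (0.28) and FAM120A (0.28), and just outside it BCAT2 (0.30), EIF2S3 (0.31) and SLC25A3 (0.31). Just above the level of 7 were BCL7A (7.11), RIF1 (7.12) and MVD (7.20), and just below it INF2 (6.99), USP7 (6.97) and CD1B (6.93). CD1B belongs, like CD1D, to the lipid-presenting molecules of thymocytes.

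The members were spread over the genome. Chromosome 4 held 5 of them (10.6%, compared to 4.02% of all genes on the array) and chromosome 21 held 3 (6.38%, compared to 1.23%), namely ADAMTS1, ETS2 and LSS. No 2 members were adjacent genes, and the closest pair, FGFR3 and HTT on chromosome 4, had 36 annotated genes between them.

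The scale of the arrays affected the sizes of the differences. When each array was centred on housekeeping genes, every log2 fold change was shifted by -0.23, and over all probe sets the median became -0.19 in place of 0.04. The median log2 fold change of the housekeeping genes themselves went from 0.09 to -0.13. This centring thus did not level them but left them lower in siLEF1 cells. The lowest gap of a member became 0.35, and 11 genes then met the rule. The housekeeping medians of the arrays (12.33 to 12.58) lay closer together than the gap of 0.6 that the rule required. The order of the groups in the 47 members was therefore fixed in advance, and nothing is read from it.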

How the data were processed

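Expression was measured in Jurkat cells, 2 siLEF1 and 2 siNT arrays, grouped by the sample labels. Per the submitters' processing notes, Affymetrix Expression Console 1.1 and RMA were used. The values deposited by the authors are log2 RMA signals with no filter. Non-transfected cells were not analysed here. The 62 control probe sets were left out. The number of arrays limits the precision.

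Gene symbols came from the platform annotation, updated by Entrez number. Of the 41091 probe sets with 1 number, 41037 were found in the reference table. Another 1801 probe sets had several symbols and 11721 had none. siLEF1 minus siNT was fitted in R 4.3.3 by the lmFit and eBayes functions of limma 3.58.1 (2-sided, 2 residual and 4.30 prior degrees of freedom), with Benjamini-Hochberg adjustment over 54613 probe sets, and the fit was tested on simulated data. Tables were made in Python 3.11.15 with pandas 2.3.3. p-values measure only the spread between these samples. In lists, a gene is read by its brightest probe set.

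The members and the 25 lists were chosen with earlier results of these data known. Genes to be named were the 12 members with the largest gap, the 8 brightest, members of a list, the 3 genes on each side of each threshold, members whose other probe sets did not move and neighbouring members. The other members are named by role, after their values were seen.

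Alternatives were a signal filter, other variance models, the replicate number as a block, 2 centrings, other thresholds of the rule, other probe sets and each array left out.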

Additional observations from a re-analysis of the deposited data

How the results depend on the processing

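The count of probe sets called higher (13) and of members among them (4) changed with the variance model, the filter and the arrays used. With a mean signal of at least 6 the counts were 1 and 0, with an intensity trend and robust hyperparameters 20 and 7, with unmoderated variances 0 and 0 (4393 of all probe sets at an unadjusted p under 0.05), and with housekeeping centring 25 and 6. After removal of _x_at and _s_at probe sets, 12 of 39114 probe sets were called higher, and 2 of the 30 members left were among them. With the replicate block the counts were 120 and 11. The replicate numbers share only a number (correlation of deviations -0.155), and with crossed numbers as a block, chosen after seeing the data, the counts were 159 and 11. Leaving out each array in turn gave 0 to 595 probe sets and 0 to 12 members, with 595 and 12 without siNT replicate 1 and 0 without any other array. Centring on the array median and other fold thresholds kept both counts within 1.5 times.

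The number of genes meeting the rule (47) was 210 with a gap of 0.4, 15 with a gap of 0.8, 90 with siNT values up to 0.5 apart, 11 with housekeeping centring, 30 without _x_at and _s_at probe sets and 30 by the brightest probe set of each gene. Without an array, which leaves fewer conditions to meet, it was 96 to 1465. It was 115 without siLEF1 replicate 1, 96 without siLEF1 replicate 2, 1465 without siNT replicate 1 and 172 without siNT replicate 2, and the cause of the difference between the siNT arrays was not tested. The median log2 fold change (0.84) was 0.61 with housekeeping centring and 0.62 as a mean over all probe sets of each gene, and 0.79 to 0.92 without an array. Where an array was left out or the arrays were centred, the rule itself fixed the direction of that median. Nothing is read from its sign there.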

Other observations

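The 47 genes held no gene of the S phase and DNA replication list, although 23 of its 29 measured genes (79.3%) had both siLEF1 values above both siNT values, with a median log2 fold change of 0.35, compared to 35.2% and 0.02 over bright genes. The siNT arrays differed in this list: its summed linear signal was 57744 and 57657 in siLEF1 cells, against 52932 and 39404 in siNT cells, with siNT replicate 2 the lowest. In the G2 and mitosis list 16 of 25 (64.0%) had both siLEF1 values above, with a median of 0.18 and sums of 41272 and 40252 in siLEF1 cells, against 38532 and 34821 in siNT cells. The part of siNT replicate 2 in these shares was not tested. No gene of either list passed an adjusted p under 0.05 by limma. A further 114 bright genes had a gap of at least 0.6 but were left out because their siNT values were 0.3 or more apart.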
